A study of Mus musculus with 2 samples.

Results

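The 8 genes described here are S100a4, S100a6, S100a10, S100a11, S100a13, Lgals1, Lgals3 and Anxa2, taken by symbol from the 31053 genes listed in both libraries. Each symbol matched 1 row, and each was counted in cell barcodes that had 1000 genes or more and no more than 10% mitochondrial UMIs. A UMI (unique molecular identifier) stands for 1 captured transcript. The set had been put together as genes of lymphoid maturation. It was followed from lymphoid progenitors to cells with markers of group 2 innate lymphoid cells (ILC2), T cells and NK cells, and compared between genotypes.

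The bone marrow of C57BL/6 mice was profiled by droplet single-cell RNA sequencing with the Chromium 3' chemistry v3.1. The KO group was LCR1-/- and the WT group LCR1+/+, and the labels list no treatment. In both, live cells had been sorted as CD45+, lineage-negative and CD127+ (positive for the IL-7 receptor alpha chain). Each genotype was 1 library from a pool of males and females in equal number, aged 8 to 12 weeks. The number of animals in a pool, the lineage antibodies and the place of LCR1 are not stated in the labels, and no row of the count tables checks the deletion. With 1 sample per genotype there was no replicate, so no test was made, no p-value is given, and all intervals (95%) cover counting error only.

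The KO library kept 4343 of 8476 barcodes with a median of 7261 UMIs, and the WT library 3290 of 20293 with a median of 5371.5 UMIs. The libraries shared 75 barcode sequences in all and 0 among the kept cells. Each kept cell was placed in a gate by counting how many different markers of each list of 8 genes had a UMI. No member is a marker. The gates held 1332 KO and 1035 WT cells as lymphoid progenitors, 722 and 186 as ILC precursors, and 642 and 770 as ILC2. A further 289 KO and 125 WT cells were gated as T, 328 and 92 as NK or ILC1, 183 and 296 as basophils, and 74 and 178 as plasmacytoid dendritic cells (pDC). ILC3 were numerous enough in KO (168 cells) but not in WT (15 cells), early B cells numbered 41 in KO and 57 in WT, and 12.7% of KO and 15.4% of WT cells joined no gate. Levels are given as CPM, the UMIs of a gene per 1000000 UMIs of the gate. Although the sort was lineage-negative, all 8 T cell markers were found in the T gate and summed to 3523 CPM in KO and 3243 CPM in WT.

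S100 proteins are small proteins with EF hands. Most, though not all, change shape on binding calcium and then attach to target proteins, many of these targets being annexins or parts of the cortical cytoskeleton. Annexin A2, the product of Anxa2, binds membrane phospholipids and forms a complex with S100a10 at the plasma membrane. Galectins bind beta-galactoside sugars on surface glycoproteins such as CD45, CD43 and CD7. In lymphocytes, transcripts of S100a4, S100a6, S100a10 and Lgals1 are known to be abundant in effector, memory and tissue-resident cells and scarce in naive cells.

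On the GRCm38 assembly, 5 of the 8 genes lie on chromosome 3, all on the plus strand and all protein coding. S100a4 (ENSMUSG00000001020, chr3:90603771-90606045) and S100a6 (ENSMUSG00000001025, chr3:90612882-90624181) are 6.8 kb apart, and S100a13 (ENSMUSG00000042312, chr3:90514435-90524581) lies 79.2 kb before S100a4. S100a11 (ENSMUSG00000027907, chr3:93520488-93526287) and S100a10 (ENSMUSG00000041959, chr3:93555080-93564643) form a second pair 28.8 kb apart. Anxa2 (ENSMUSG00000032231) is at chr9:69453620-69491795, Lgals3 (ENSMUSG00000050335) at chr14:47367751-47386160 and Lgals1 (ENSMUSG00000068220) at chr15:78926725-78930465. The 250 bases before the transcription start of 4 members are printed: those of S100a4 and S100a6, neighbours that differed in T cells, and of S100a11 and Anxa2, the members whose windows held TGANTCA. They come from the RefSeq promoter table on GRCm38.p6, which matched 6 of the 8 symbols, and all are on the plus strand. The first starts at chr3:90603520-90603769, the second at chr3:90612644-90612893, the third at chr3:93520246-93520495 and the fourth at chr9:69453433-69453682. Capitals mark matches on either strand to TGANTCA, the letters bound by AP-1, and to TATAAA, the TATA box.
S100a4: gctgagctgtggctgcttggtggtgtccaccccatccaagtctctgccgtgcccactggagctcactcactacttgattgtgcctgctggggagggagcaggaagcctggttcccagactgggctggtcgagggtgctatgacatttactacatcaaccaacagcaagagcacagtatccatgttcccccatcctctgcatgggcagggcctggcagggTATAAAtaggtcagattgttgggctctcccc
S100a6: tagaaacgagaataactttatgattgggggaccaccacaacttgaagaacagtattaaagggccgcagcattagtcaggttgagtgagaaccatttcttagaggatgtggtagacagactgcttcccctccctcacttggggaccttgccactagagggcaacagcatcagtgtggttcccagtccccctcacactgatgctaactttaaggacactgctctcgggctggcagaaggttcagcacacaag
S100a11: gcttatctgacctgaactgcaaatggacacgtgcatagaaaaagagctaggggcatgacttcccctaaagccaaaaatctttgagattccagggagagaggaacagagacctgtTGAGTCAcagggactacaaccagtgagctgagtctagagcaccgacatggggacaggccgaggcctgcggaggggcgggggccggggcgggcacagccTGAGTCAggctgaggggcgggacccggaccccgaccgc
Anxa2: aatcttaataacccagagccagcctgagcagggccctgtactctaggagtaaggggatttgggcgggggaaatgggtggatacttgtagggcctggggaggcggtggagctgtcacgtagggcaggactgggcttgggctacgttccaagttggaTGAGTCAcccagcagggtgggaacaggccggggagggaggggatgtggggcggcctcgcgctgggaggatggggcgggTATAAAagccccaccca
The TGANTCA letters began 136 and 38 bases before the start of S100a11 and 95 bases before that of Anxa2. TATAAA began 31 bases before the start of S100a4 and 17 before that of Anxa2. Over 32851 promoter windows of the same length, 6.75% held TGANTCA and 12.4% held TATAAA. The windows of S100a6, S100a13 and Lgals3 held neither, so of the 6 matched members TGANTCA was in 2 and TATAAA in 2. CAGGTG, an E-box, was also searched, was found in 17.2% of windows, and among the 6 members matched was in Lgals3 alone.

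The members did not climb step by step to the ILC2 state. Most were low in lymphoid progenitors and high in ILC precursors, T cells and NK or ILC1 cells, while ILC2 lay between progenitors and ILC precursors for S100a4, S100a6, S100a10 and S100a11 and below progenitors for Lgals1 and Anxa2. Against progenitors, ILC2 were still 11.4-fold higher in KO and 9.88-fold in WT for S100a4, and 6.13-fold and 5.36-fold for S100a6. The label of maturation genes thus held for ILC2 over progenitors in S100a4, S100a6 and S100a10, and not in Lgals1 and Anxa2. No member was called higher in ILC2 than in ILC precursors. The 8 are called the S100, galectin and annexin genes here.

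S100a4 encodes a protein that binds the heavy chain of non-muscle myosin IIA. Its level in the KO library was 12.5 CPM in lymphoid progenitors, 568 in ILC precursors and 142 in ILC2, and in the WT library 15.4, 747 and 152 CPM. The ILC precursor gate was 45.5-fold above the progenitor gate in KO (interval 40.1 to 51.9) and 48.7-fold in WT (42.0 to 56.6). It was the highest gate of the compared lymphoid gates in WT, though its interval overlapped the next one. The ILC2 gate was 4.00-fold below ILC precursors in KO (3.62 to 4.43) and 4.93-fold below in WT (4.50 to 5.40). NK or ILC1 cells held 430.0 CPM in KO and 665 CPM in WT. The highest level of S100a4 among KO gates of at least 50 cells was in ILC3, at 1481 CPM, 119-fold above progenitors (104 to 136), and 98.2% of those 168 cells had at least 1 UMI of it. In the 15 WT cells of that gate, 14 had a UMI.

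S100a6 encodes calcyclin, a partner of the calcyclin-binding protein Cacybp. Its level in the KO library was 16.6 CPM in lymphoid progenitors, 365 in ILC precursors and 102 in ILC2, and in the WT library 17.9, 257 and 96.1 CPM. In T cells it was at 669 CPM in KO and 1040.4 CPM in WT, the highest level of any WT gate of at least 50 cells, while in KO the ILC3 gate was at 702 CPM with an interval that overlapped that of T cells. The T cell levels were 40.4-fold (35.8 to 45.7) and 58.0-fold (50.4 to 67.1) above the progenitors of the same library. Although S100a4 and S100a6 lie 6.8 kb apart, they split in T cells: S100a4 was 5.65-fold lower in T cells than in ILC precursors in KO (4.87 to 6.60) and 1.73-fold lower in WT (1.55 to 1.92), while S100a6 was 1.83-fold higher in KO (1.71 to 1.97) and 4.05-fold higher in WT (3.66 to 4.49).

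S100a10 encodes the light chain of the annexin A2 complex. Its level was 201 CPM in lymphoid progenitors, 778 in ILC precursors and 450.2 in ILC2 of the KO library, and 210.2, 753 and 460 CPM in the WT library. ILC2 were 2.23-fold above progenitors in KO (2.10 to 2.38) and 2.19-fold in WT (2.06 to 2.32), just past the fold of 2 used for a call between gates. The T gate had 564 CPM in KO and 713 CPM in WT, and the NK or ILC1 gate 714 CPM in KO and 727 CPM in WT.

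Anxa2, the heavy partner of S100a10, did not follow it into ILC2. Its level in KO was 24.2 CPM in lymphoid progenitors, 104 in ILC precursors and 6.93 in ILC2, and in WT 25.8, 78.1 and 4.09 CPM. ILC2 were thus 15.1-fold below ILC precursors in KO (9.78 to 24.5) and 19.1-fold below in WT (11.7 to 33.0). The ILC2 counts were small, at 21 UMIs over 642 KO cells and 18 UMIs over 770 WT cells, and the level was also below that of progenitors. T cells held 313 CPM in KO and 260.3 CPM in WT, and NK or ILC1 cells 241 CPM in KO and 269.9 CPM in WT. In both gates Anxa2 was more than 2-fold above ILC precursors in each library, from 2.31-fold for NK or ILC1 in KO to 3.45-fold for the same gate in WT.

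S100a11, whose protein binds annexin A1, moved less. It had 139 CPM in progenitors, 344 in ILC precursors and 186 in ILC2 of the KO library, and 146, 275 and 161 CPM in the WT library. The ILC precursor gate passed 2-fold over progenitors in KO (2.46-fold, 2.33 to 2.61) and stayed under it in WT (1.88-fold, 1.72 to 2.06). S100a13, which takes part in the non-classical release of proteins such as FGF1, ranged over gates of at least 50 cells from 68.5 CPM in progenitors to 231 CPM in ILC3 of the KO library, and from 63.2 CPM in early B cells to 182 CPM in T cells of the WT library. T cells were 2.54-fold above progenitors in KO (2.24 to 2.87) and 2.57-fold in WT (2.18 to 3.01).

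Lgals1 encodes galectin-1 and, unlike the S100 members, was lower in ILC2 than in progenitors. Its level in KO was 216 CPM in lymphoid progenitors, 280.1 in ILC precursors and 65.3 in ILC2, and in WT 348, 352 and 89.9 CPM. ILC2 were its lowest gate of at least 50 cells in both libraries, 3.31-fold below progenitors in KO (2.87 to 3.83) and 3.87-fold below in WT (3.49 to 4.30). The highest levels in such gates were outside the lymphoid ones, in pDC (1426 CPM in KO and 1487 in WT) and basophils (847 CPM in KO and 795 in WT). In WT the intervals of the ILC precursor, progenitor and NK or ILC1 gates overlapped one another in that order. Lgals3, which encodes galectin-3, had its highest level among gates of at least 50 cells in basophils, with 152 CPM in KO and 134 CPM in WT. In lymphoid progenitors it had 0.341 CPM in KO (7 UMIs) and 2.42 CPM in WT (32 UMIs), and in pDC 0 of 707622 UMIs in KO, where the floor of 3 counts is 4.24 CPM, and 3.55 CPM in WT (4 UMIs). The T gate had 20.5 CPM in KO and 91.0 CPM in WT. A part of it, the 38 WT cells with under 3 markers of the NK or ILC1 list, was above basophils at 311 CPM. In that part 42.1% of cells had a UMI, and 5 of them held 71.8% of the UMIs. The 40 such KO cells had 83.4 CPM.

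**Figure D1:**
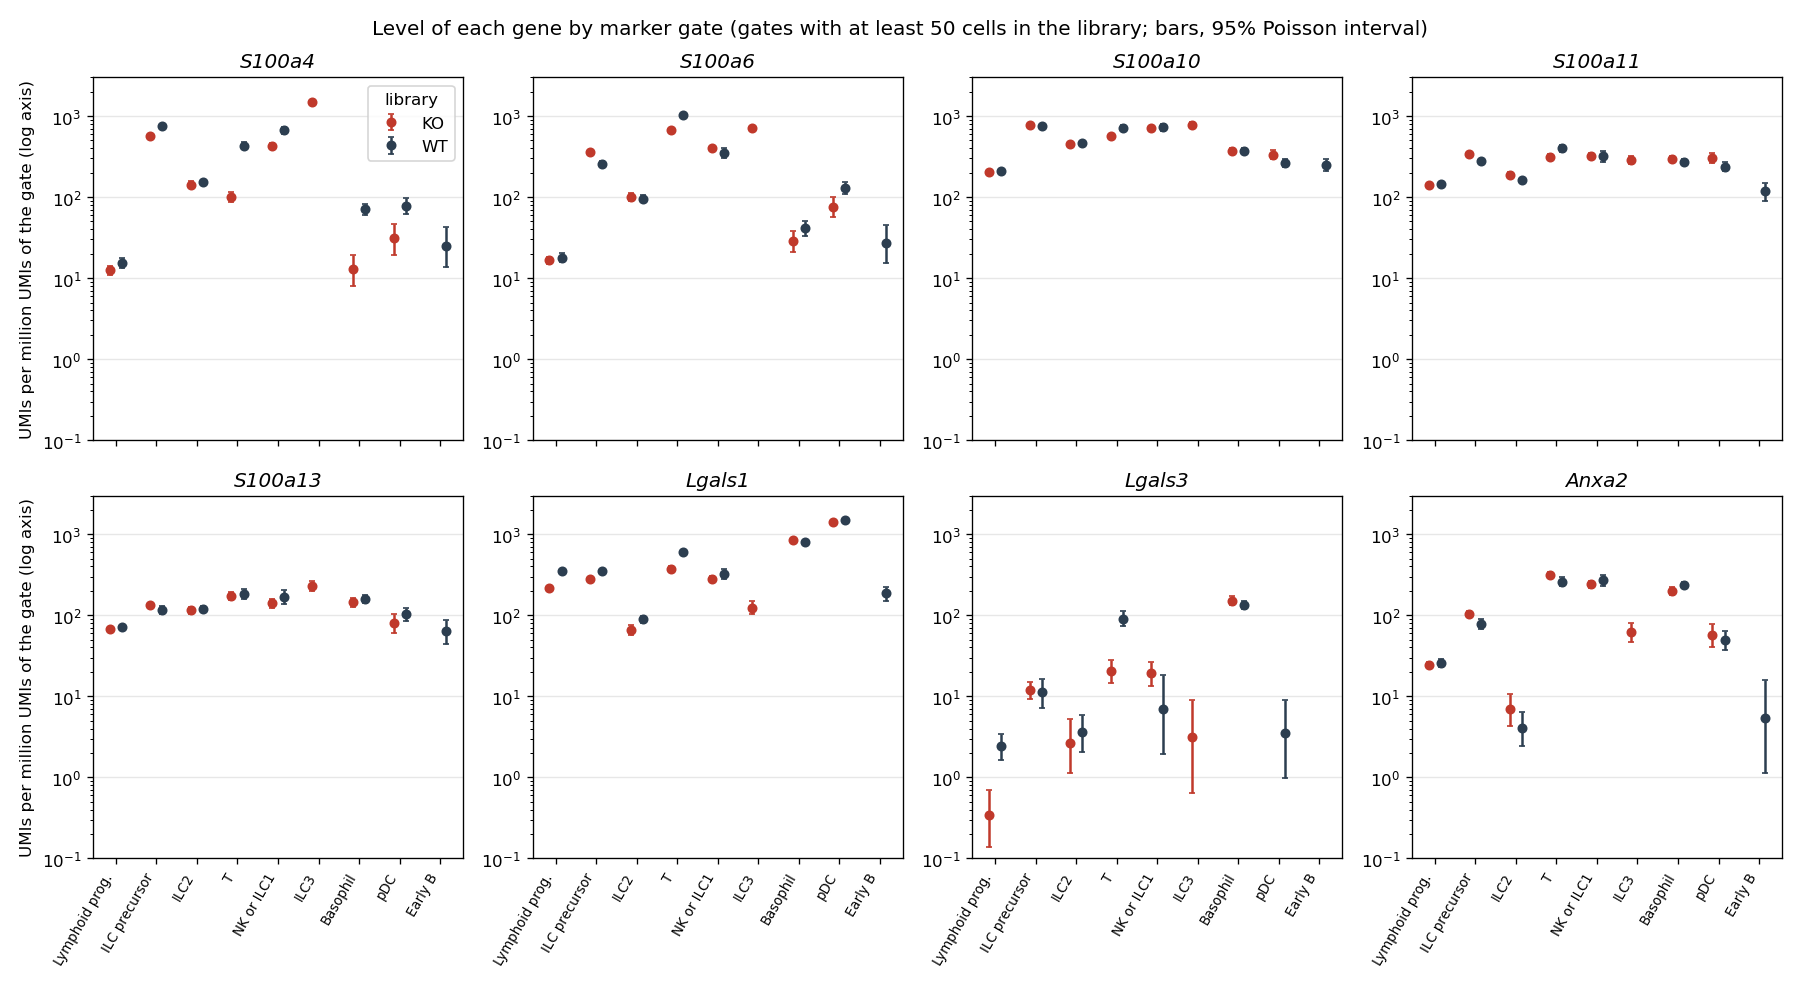
Level of each of the 8 genes in CPM (log axis) by marker gate, KO left of WT, with 95% Poisson intervals for gates of at least 50 cells. S100a4 and S100a6 sit under 20 CPM in lymphoid progenitors of both libraries and above 90 CPM in ILC precursors and ILC2, while Lgals1 has its lowest point in ILC2.

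Counts over the set used genes with at least 50 UMIs over the gates compared and 50 CPM in the higher of them. Such a filter lets a low member in only through the gate where it is high. It left 6 to 8 of the 8 to count per comparison between gates, and 4 to 8 between genotypes. Against progenitors, ILC precursors had 5 of 7 measured members higher by 2-fold or more in KO, where 9.43% of all measured genes passed, and 4 of 7 in WT, where 9.35% passed; 0 were lower, beside 6.89% in KO and 8.04% in WT. ILC2 had 3 of 6 higher in each library (S100a4, S100a6 and S100a10), against 12.1% of all genes in KO and 11.5% in WT. Lgals1 was the 1 measured member lower in ILC2, against 20.2% of all genes in KO and 19.2% in WT. Anxa2 was lower there too, but it was under 50 CPM in both gates and so was not counted. Its ratio of ILC2 over progenitors was 0.286 in KO (0.175 to 0.442) and 0.158 in WT (0.0928 to 0.254). Lgals3 was not counted either, and its level was higher in ILC2, with a WT interval that held 1. In T cells 6 of 7 were higher in KO (10.7% of all genes) and 7 of 8 in WT (11.4%), the added one being Lgals3, and 0 were lower, beside 18.6% in KO and 15.5% in WT. NK or ILC1 cells had the same 6 of 7 higher in KO and in WT, namely the 5 S100 genes and Anxa2, beside 12.2% and 14.1% of all genes, and 0 lower, beside 8.65% and 14.6%. The ILC3 gate of KO had these 6 of 7 higher too, beside 16.1%, and 0 lower, beside 12.5%. The median log2 ratio of measured members for T cells over progenitors was 1.86 in KO and 2.42 in WT, where the median over all genes was -0.25 and -0.18.

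From ILC precursors to ILC2 no member was called higher, against 4.96% of all genes in KO and 5.59% in WT. In each library 4 of 7 were lower (S100a4, S100a6, Lgals1 and Anxa2), against 9.48% of all genes in KO and 9.03% in WT. The median log2 ratio of the measured members was -1.47 in KO and -1.14 in WT, beside -0.28 and -0.24 over all genes. T cells over ILC precursors gave 1 of 7 higher in KO (Anxa2, 4.63% of all genes) and 1 lower (S100a4, 10.8%), and in WT 3 of 8 higher (S100a6, Lgals3 and Anxa2, 5.44%) and 0 lower (7.15%). For NK or ILC1 over ILC precursors, Anxa2 was the 1 of 7 higher in each library, beside 3.99% of all genes in KO and 6.26% in WT, and 0 were lower, beside 4.57% and 5.46%. The comparisons within a library share their progenitor or ILC precursor cells.

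The order between ILC precursors and ILC2 was followed more finely. Cells of both gates were thinned to 1500 UMIs each and binned by the number of ILC2 markers minus the number of ILC precursor markers with a UMI. S100a4 stood at 616 CPM in the lowest bin (-3 or less, 276 cells) and at 103 CPM in the highest (3 or more, 279 cells) in KO, and at 800.0 and 76.3 CPM in WT (80 and 332 cells). In KO it was about level over the 3 bins below 0, between 613 and 671 CPM, then 397 CPM at 0 and 208 CPM at 1. S100a6 in KO did not start to drop until past 0, with 338, 420.0, 416 and 344 CPM in the bins from -3 to 0 and 74.1 CPM in the highest. S100a10 went less far, with 838 CPM in the lowest and 354 CPM in the highest bin of KO, and 817 and 376 CPM in WT. S100a13 was nearly flat, at 150 and 122 CPM in KO and 117 and 100.4 CPM in WT. The bins use the gates' own markers, but none of the 8 genes.

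**Figure D2:**
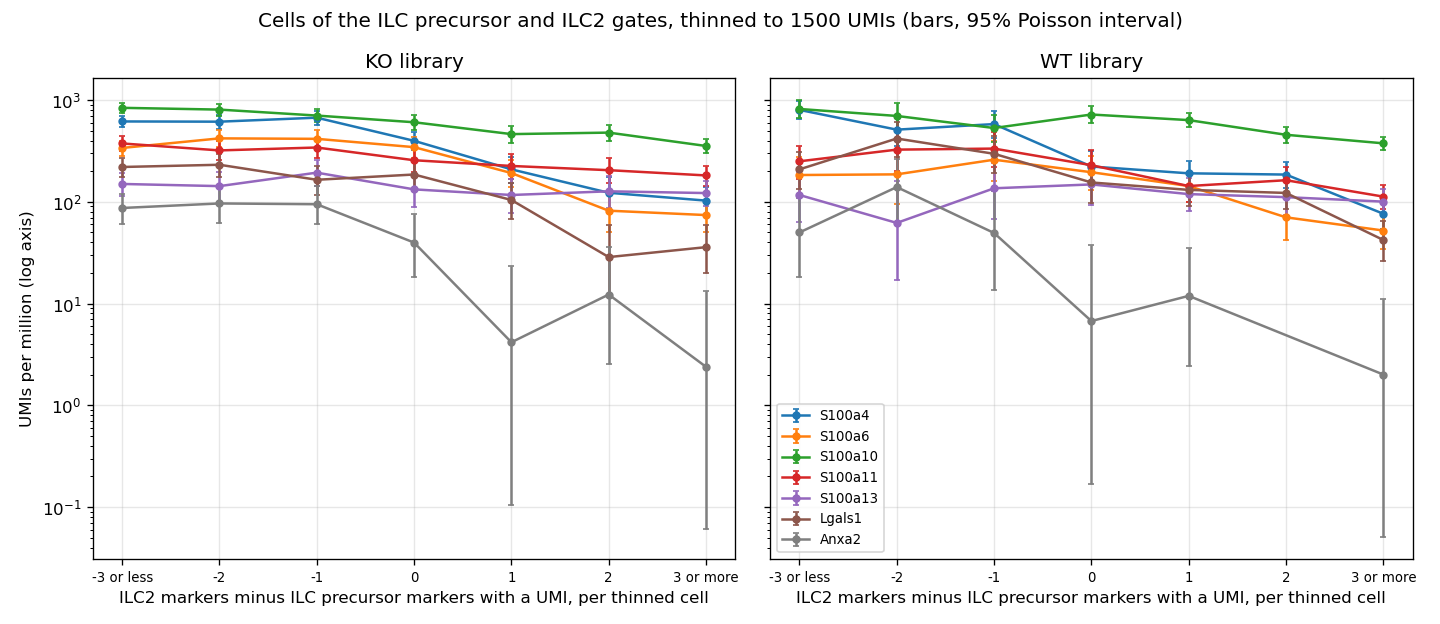
CPM (log axis) of 7 of the genes against the difference between ILC2 and ILC precursor marker counts per thinned cell, KO left and WT right, with 95% Poisson intervals. Bins with no UMI are not drawn and Lgals3 is left out for its low counts. S100a10 ends at 354 CPM in KO and 376 CPM in WT, while Anxa2 ends at 2.39 and 2.01 CPM.

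ILC2 were not uniform. Cells with a UMI of Calca, which encodes the peptide CGRP and is an ILC2 marker, had 66.4 CPM of S100a6 in KO (326 cells), and cells with none 136 CPM (316 cells). In WT these levels were 59.7 CPM (430 cells) and 139 CPM (340 cells). The median depth was 4344 and 4587.5 UMIs in KO, and 4939 and 5791 UMIs in WT. S100a10 followed with 382 and 517 CPM in KO, and 373 and 562 CPM in WT, and S100a4 had 139 and 145 CPM in KO, and 128 and 179.5 CPM in WT. ILC2 with at least 2 cycling genes had 266 CPM of Lgals1 in KO (68 cells) and 199.9 CPM in WT (158 cells), and the other ILC2 35.6 CPM in KO and 52.6 CPM in WT. These Lgals1 levels rest on few cells: over all ILC2, 1 KO cell held 83 of the 198 UMIs and 5 of 642 held 59.6%, and 5 of 770 WT cells held 22.2% of 396 UMIs. NK or ILC1 cells with a UMI of Eomes, a transcription factor of NK cells, had 153 CPM of S100a4 in KO (36 cells, median 13922.5 UMIs), and those without 533 CPM (292 cells, median 4201.5 UMIs). The 8 such WT cells had 304 CPM and the other 84 had 721 CPM.

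Shares of cells with a UMI after thinning every cell to 1500 UMIs gave the same order of progenitors, ILC precursors and ILC2 for S100a4. In KO, 2.18% of lymphoid progenitors, 47.1% of ILC precursors and 13.7% of ILC2 had a UMI of S100a4, and in WT 3.77%, 44.6% and 14.2%. In early B cells, used as a type of low level, S100a4 was seen in 0 of 41 KO cells (upper bound 8.60%) and in 3.51% of 57 WT cells, so the progenitor shares were not above that level. For S100a6 the ILC2 share was 10.4% in KO and 7.79% in WT, and the early B share 4.88% (0.596% to 16.5%) and 10.5% (3.96% to 21.5%), so ILC2 could not be told from early B cells by this share. For S100a10 the same held, with 41.4% of KO and 46.6% of WT ILC2, and 39.0% (24.2% to 55.5%) and 42.1% (29.1% to 55.9%) of early B cells. By CPM the intervals of the gates did not overlap. S100a6 had 102 CPM in KO and 96.1 CPM in WT ILC2, and 23.2 and 27.1 CPM in early B cells. S100a10 had 450 CPM in KO and 460 CPM in WT ILC2, and 218 and 251 CPM in early B cells. Before thinning, the median depth of early B cells was 11904 UMIs in KO and 3187 UMIs in WT. The unthinned share of progenitors with S100a4 was 10.3% in KO. The number of different members per thinned cell averaged 0.776 in KO and 0.968 in WT progenitors, 2.31 and 2.23 in ILC precursors, 1.14 and 1.12 in ILC2, 2.49 and 2.90 in T cells, and 2.60 and 2.70 in NK or ILC1 cells. At least 4 members were seen in 2.65% of KO and 3.51% of WT ILC2, and in 23.5% of KO and 34.4% of WT T cells.

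Between genotypes, no member was called over the whole ILC2 or ILC precursor gate. For ILC2, 0 of 6 measured members were called at 1.5-fold or more in KO over WT, beside 2.24% of all genes higher and 1.69% lower. The KO over WT ratio was 0.937 for S100a4 (0.828 to 1.06), 1.06 for S100a6 (0.910 to 1.23), 0.979 for S100a10 (0.914 to 1.05) and 0.966 for S100a13 (0.841 to 1.11). The first 2 ratios differed by subset. In cycling ILC2 (68 KO and 158 WT cells) S100a4 was at 0.702 (0.537 to 0.908) and S100a6 at 0.874 (0.644 to 1.17). In those not cycling (574 KO and 612 WT cells) S100a4 was at 1.21 (1.04 to 1.40) and S100a6 at 1.36 (1.13 to 1.64). Lgals1 was lower in KO by less than the call, at a ratio of 0.726 (0.609 to 0.863), and S100a11 was at 1.15 (1.03 to 1.29). The Lgals1 ratio leans on 1 KO cell that held 83 of the 198 KO UMIs. Before thinning, 10.3% of KO and 19.1% of WT ILC2 had a UMI of Lgals1. Its ratio was 0.457 (0.336 to 0.613) in ILC2 with a Calca UMI and 0.960 (0.766 to 1.20) in the others. It was 1.33 (1.05 to 1.69) in cycling ILC2 and 0.676 (0.520 to 0.874) in those not cycling. In ILC precursors 0 of 7 were called, beside 2.78% of all genes higher and 0.909% lower. There S100a6 had a ratio of 1.42 (1.30 to 1.56), Anxa2 1.34 (1.13 to 1.59), S100a11 1.25 (1.14 to 1.37), Lgals1 0.796 (0.732 to 0.867) and S100a4 0.760 (0.717 to 0.806). In WT ILC precursors, 1 cell held 133 of the 1674 S100a4 UMIs, and 5 of 186 cells held 21.0% of them.

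In lymphoid progenitors 1 of 4 measured members was lower in KO, Lgals1, beside 1.05% of all genes, and 0 were higher, beside 1.49%. Its level was 216 CPM in KO and 348 CPM in WT, a ratio of 0.620 (0.595 to 0.647). Genes of the cell cycle moved with it: 4 of 11 measured cycling genes were lower in KO, with Mki67 at 320 CPM in KO and 527 CPM in WT and Top2a at 424 and 658 CPM, and 71.3% of KO and 82.6% of WT progenitors had at least 2 cycling genes. In cycling progenitors Lgals1 was at 239 CPM in KO and 369 CPM in WT, a ratio of 0.649 (0.622 to 0.677), and in the others at 114 CPM in KO and 125 CPM in WT, a ratio of 0.918 (0.756 to 1.12). The progenitors that were not cycling had a median of 9765 UMIs in KO and 3218 UMIs in WT. Split by Ly6d, a surface marker of the B-lineage branch, Lgals1 had 281 CPM in KO and 444 CPM in WT cells with a UMI of it, and 128 and 175 CPM in those without. Several marker lists of other cells also summed lower in KO progenitors: the erythroid list to 42.9 CPM in KO and 347 CPM in WT, the neutrophil list to 109 and 268 CPM, the basophil list to 83.9 and 186 CPM, the ILC2 list to 65.6 and 113 CPM and the pDC list to 1340.0 and 1694 CPM. Other lists summed higher in KO progenitors, among them the early B list, at 355 CPM in KO and 248 CPM in WT. The T list summed to 126 and 76.6 CPM and the ILC3 list to 308 and 278 CPM. The part of all these lists in the Lgals1 ratio was not tested. The level of Lgals1 was lower in KO in each of the 4 subsets by cycling genes or by Ly6d, but the interval left out 1 in 3 of them. S100a10, S100a11 and S100a13 had ratios between 0.952 and 0.967 in progenitors.

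The T gate held more called members than any of the other 6 gates compared. Of 8 measured members, 4 were lower in KO and 0 higher, beside 8% of all genes lower and 2.5% higher. S100a4 had 100.5 CPM in KO and 433 CPM in WT, a ratio of 0.232 (0.194 to 0.277). Lgals3 had 20.5 CPM in KO and 91.0 CPM in WT, a ratio of 0.226 (0.150 to 0.334). It was under 50 CPM in KO and entered the count through WT alone, so its call depends on the filter. In KO 5 of 289 T cells held 59.5% of the Lgals3 UMIs, and in WT 5 of 125 held 60.2%. With cells thinned to 1500 UMIs the Lgals3 ratio was 0.247 and no longer called, on fewer UMIs. S100a6 had a ratio of 0.643 (0.591 to 0.699) and Lgals1 of 0.631 (0.565 to 0.705), while Anxa2 was at 1.20 (1.04 to 1.40). The median log2 ratio over all genes was -0.11 in this gate, and a scaling by the median of ratios brought S100a6 and Lgals1 to 0.695 and 0.682, short of the call. In WT, 5 of 125 T cells held 40.3% of the S100a4 UMIs, and in KO 5 of 289 held 42.5%.

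The T gate mixed cells with and without NK markers. At least 3 markers of the NK or ILC1 list were seen in 249 of the KO cells (86.2%) and 87 of the WT cells (69.6%). In these NK-marked T cells S100a6 was at 643 CPM in KO and 645 CPM in WT, a ratio of 0.997 (0.895 to 1.11), and Lgals1 at 365 and 398 CPM, a ratio of 0.916 (0.796 to 1.05). Lgals3 was at 12.0 CPM in KO and 19.5 CPM in WT, a ratio of 0.616 (0.297 to 1.30) that was not called. S100a4 remained lower in KO, at 63.7 CPM against 108 CPM in WT, a ratio of 0.592 (0.438 to 0.801). The other T cells, 40 in KO and 38 in WT, had 371 CPM of S100a4 in KO and 1430.0 CPM in WT, 858 and 2254 CPM of S100a6, 464 and 1207 CPM of Lgals1, and 83.4 and 311 CPM of Lgals3. Anxa2 went the other way in them, with 246 CPM in KO and 123 CPM in WT. These cells were few, and 5 of them carried 81.2% of the S100a4 UMIs in KO and 49.6% in WT. Within these cells the ratio was 0.259 for S100a4 (0.201 to 0.331), 0.380 for S100a6 (0.320 to 0.450), 0.384 for Lgals1 (0.303 to 0.483) and 0.269 for Lgals3 (0.151 to 0.453). The share of NK-marked cells differed between the libraries, and its part in the whole-gate ratios was not tested. Other marker sums moved as well: the ILC2 list summed to 219 CPM in KO and 379 CPM in WT T cells, the ILC3 list to 117 and 369 CPM, the pDC list to 141 and 421 CPM and the basophil list to 127 and 344 CPM. The progenitor list summed to 495 CPM in KO and 828 CPM in WT, and the neutrophil list to 7.78 CPM with 5 of its 8 markers at 0 in KO, and 45.0 CPM with 3 at 0 in WT.

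**Figure D3:**
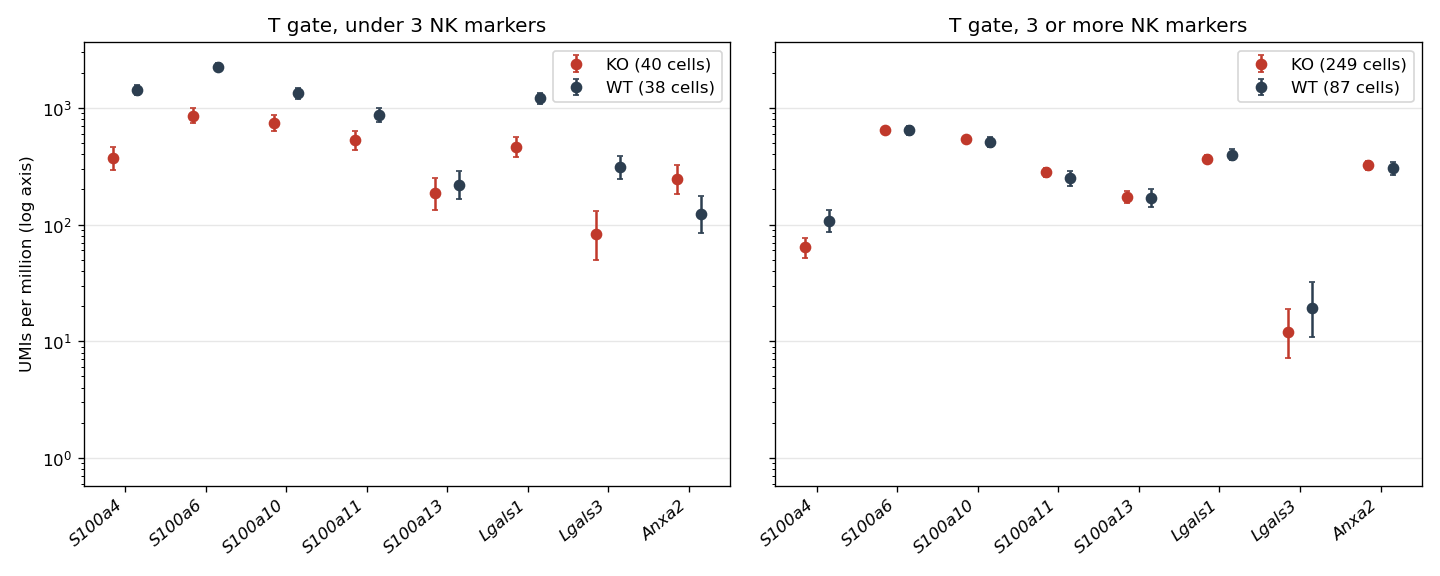
CPM (log axis) of the 8 genes in T cells with under 3 NK markers (left panel) and with 3 or more (right panel), KO left of WT, with 95% Poisson intervals. In the right panel S100a6 is at 643 CPM in KO and 645 CPM in WT, and in the left panel at 858 CPM in KO and 2254 CPM in WT.

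Members also varied together from cell to cell in WT T cells more than in other gates of 100 cells or more. Over the 125 WT cells, thinned, Pearson's r was 0.61 between S100a4 and S100a6, 0.55 between S100a6 and Lgals1 and 0.51 between S100a4 and S100a10. These cells share a library and a depth, and the counts are sparse, so the values are descriptions. The gate also mixed cells with and without NK markers, which differed in S100a4, S100a6 and Lgals1. The part of that mixture in these values was not tested.

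Outside the T gate S100a4 was the member called most often. NK or ILC1 cells had 1 of 7 members lower in KO, S100a4 at 430.0 CPM in KO and 665 CPM in WT, beside 3.3% of all genes lower and 3.98% higher. The ratio of 0.646 (0.572 to 0.732) was near the limit, and 5 of 92 WT cells held 34.0% of the UMIs. With every cell weighing the same, the ratio was 0.766, and 5 alternatives brought it short of 1.5-fold. In basophils 1 of 7 was lower, again S100a4, with 12.9 CPM in KO (22 UMIs) and 70.9 CPM in WT (153 UMIs), beside 3.25% of all genes. S100a4 passed the filter of 50 CPM in basophils through WT alone. There 5 of 296 WT cells held 76.5% of the UMIs. In pDC 2 of 7 were lower in KO, beside 5% of all genes: S100a4 with 31.1 CPM in KO and 78.2 CPM in WT, and S100a6 with 76.3 and 130 CPM. Here too S100a4 passed the filter through WT alone. Of the WT UMIs of S100a4 in pDC, 5 of 178 cells held 69.3%, the neutrophil list summed to 8.48 CPM in KO and 93.3 CPM in WT, and the KO over WT ratio of S100a4 was 0.901 when cells needed 1 marker more. The S100a6 ratio of 0.588 was no longer called under 4 alternatives, at 0.659 with at most 5% mitochondrial UMIs, 0.678 with thinned cells, 0.794 as a mean of CPM per cell and 0.652 without cycling cells. The part of these cells in the ratios of pDC was not tested.

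**Figure D4:**
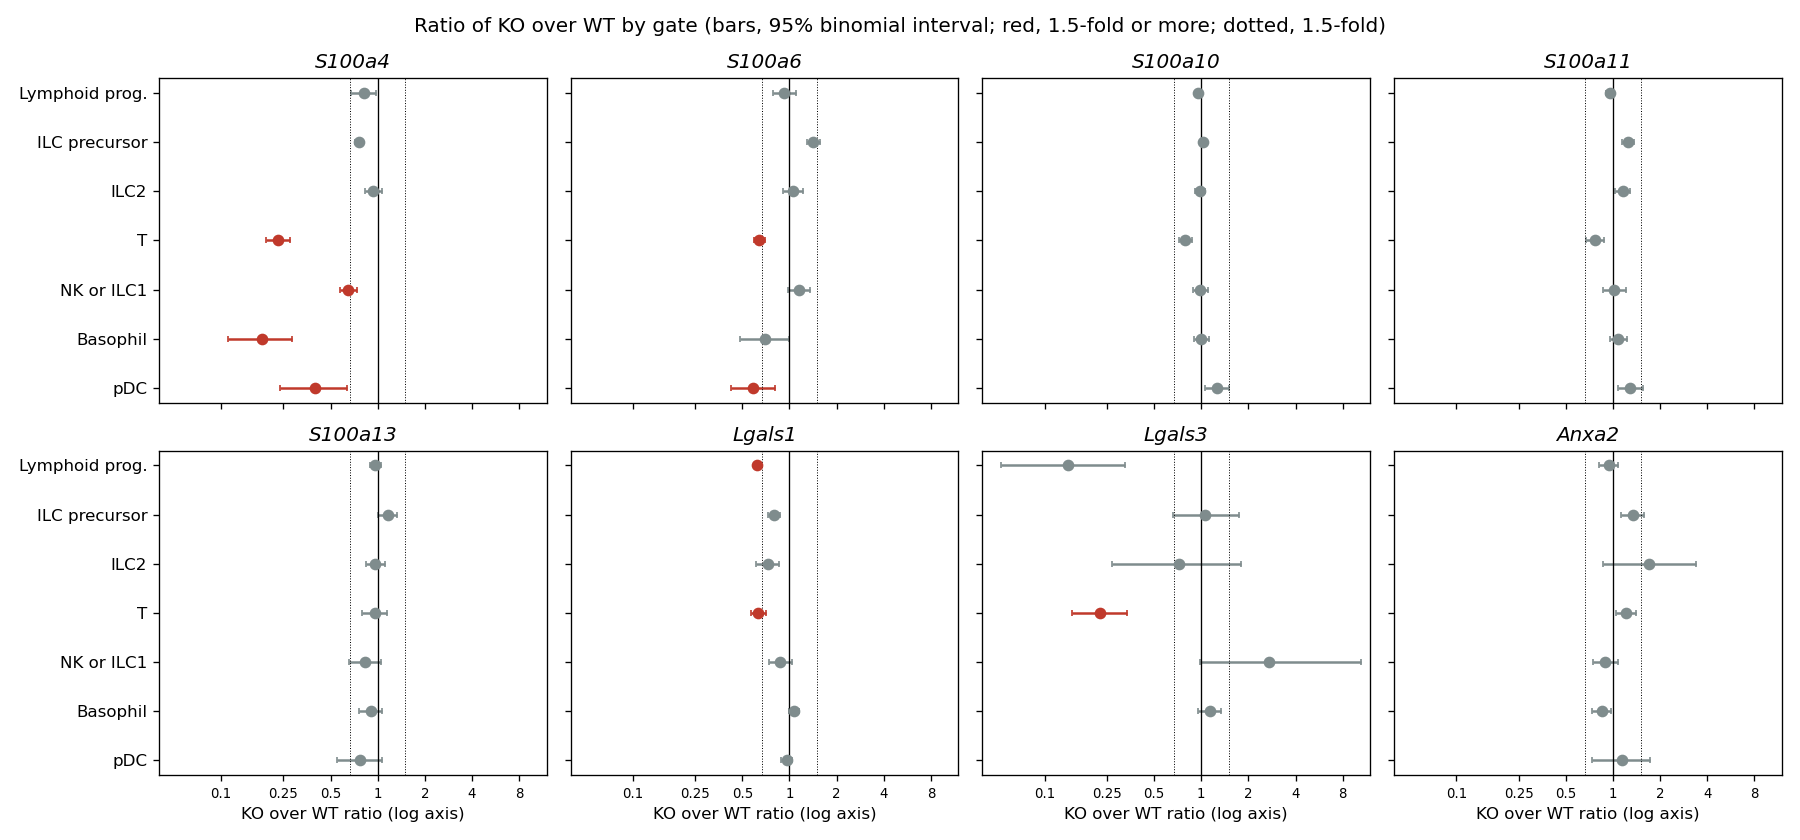
KO over WT ratio (log axis) of each gene in the 7 gates with at least 50 cells per library, with 95% binomial intervals. Ratios called at 1.5-fold or more are red; all 9 lie below 1 and 4 of them are in the T gate, while no ILC2 ratio is red.

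The wider families were mostly too low to measure. Of 13 other genes listed with the S100 family, 0 were measured in the comparisons of lymphoid gates. The 5 S100 members were thus the ones these cells expressed above the filter. The 13 include S100pbp, which encodes an S100-binding protein rather than an S100 protein. It was measured in pDC alone and was lower there in KO, beside 5% of all genes. Among other annexins, Anxa6, a membrane-binding annexin, was higher in T cells than in progenitors, 5.05-fold in KO (4.46 to 5.71) and 4.64-fold in WT (3.98 to 5.39). Of the other galectins Lgals9, which encodes galectin-9, was lower in T cells than in progenitors, 2.31-fold in KO and 2.07-fold in WT.

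Partners and cytoskeletal genes shared part of the pattern. In ILC precursors over progenitors, 4 of 20 measured partners were higher in KO and 4 of 21 in WT, in both the large membrane-scaffold gene Ahnak, the myosin heavy chain Myh9, Tmsb4x and Tagln2, beside 9.43% of all genes in KO and 9.35% in WT, and 0 were lower, beside 6.89% and 8.04%. In ILC2 over ILC precursors 7 of 20 in KO and 7 of 21 in WT were lower, beside 9.48% and 9.03% of all genes, and 0 higher, beside 4.96% and 5.59%, with a median log2 ratio of -0.70 in KO and -0.73 in WT beside -0.28 and -0.24 over all genes. The 7 were the same in both libraries: Ahnak, Myh9, Vim, Tagln2, Crip1, Lsp1 and Cfl1. Ahnak, whose protein is anchored by the S100a10 and annexin A2 complex, had 71.9 CPM in ILC2 and 241 CPM in ILC precursors of KO, and 57.5 and 174 CPM in WT. The cycling genes also fell there, 6 of 7 in KO and 7 of 8 in WT. Among galectin-binding glycoproteins, Cd7 was 13.4-fold lower in ILC2 than in ILC precursors in KO and 40.03-fold lower in WT, and Gcnt1, an enzyme of core O-glycan branching, was 4.10-fold and 2.60-fold higher. Between genotypes, 0 of 20 partners were called in progenitors, beside 1.05% of all genes lower and 1.49% higher. In T cells 1 of 22 was lower in KO, which is no larger a share than the 8% of all genes, and 0 were higher, beside 2.5%. The T cell gene called was Capg, an actin-capping gene, at 27.2 CPM in KO and 110 CPM in WT T cells, so it passed the filter through WT alone.

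Over the 16 sums of gates with at least 50 cells in a library, the profile of a member against the mean of the others gave Pearson's r of 0.93 for S100a11, 0.84 for S100a13, 0.80 for S100a10, 0.77 for Anxa2, 0.72 for S100a6, 0.52 for S100a4, 0.47 for Lgals3 and 0.13 for Lgals1. S100a4 and S100a10 were the closest pair (0.91). The 16 sums come from 2 libraries and share their cells' handling, so these are descriptions. Among 4909 other genes, the 10 whose profile was most like the mean of the 8 were Sike1 (0.96), Anxa6 (0.95), Gramd1b (0.93), Sept1, Trim12a, Bin2, Actr3, Pfn1, Itgal and Myl6 (0.88). Pfn1 had its highest level in NK or ILC1 cells of KO, at 1959.5 CPM, and its lowest in WT progenitors, at 776 CPM.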

How the data were processed

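Raw UMI counts per gene and barcode were deposited as 1 sparse matrix per library, written by Cell Ranger 3.1.0 per the file headers. The submitters' processing notes also name mm10 and Seurat, with no role stated, and the annotation release is unknown here. From these counts, barcodes with at least 1000 genes and at most 10% mitochondrial UMIs were kept (lowest depth 1760 UMIs in KO and 1557 in WT). A cell joined the gate of the list with most different markers seen, if at least 3 were seen and at least 1 more than of any other list; cells with at least 2 of 3 CD3 genes were T cells or left out. The lists were given, and these minimums were set on the markers after seeing them, never on the 8 genes. UMIs were summed per gate and library and divided by all UMIs of the gate (CPM), with exact Poisson intervals, exact binomial intervals for ratios and exact Clopper-Pearson intervals for shares. A ratio was called at 2-fold between gates and at 1.5-fold between genotypes if its interval left out 1, among genes with 50 UMIs in sum and 50 CPM in the higher gate. Log2 ratios used CPM + 5. The intervals cover counting error only. Doublets were not removed in the main values and were sought with Scrublet (scanpy 1.11.5) as an alternative. All 8 genes are named, with the 10 most like genes by Pearson's r and up to 4 genes per list by the size of the ratio; the subsets, neighbours and list genes beyond that were chosen after their values were seen. The members and lists were chosen with earlier results of these data known. Gene places are from GENCODE M21 (GRCm38). The ratio calculation was tested on simulated data. Python 3.11.15, numpy 2.4.6, scipy 1.17.1 and pandas 2.3.3 were used.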

Additional observations from a re-analysis of the deposited data

Results flagged for a closer look

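For 4 genes the KO over WT ratio lay above 1 in 1 gate and below 1 in another, with intervals that left out 1 in both, and the difference was not tested, since each genotype had 1 library. S100a6 had a ratio of 1.42 in ILC precursors and 0.588 in pDC, 2.41 times apart. S100a11 had 1.29 in pDC and 0.770 in T cells, 1.68 times apart. S100a10 had 1.26 in pDC and 0.791 in T cells, 1.60 times apart. In T cells with 3 or more NK markers alone S100a11 was at 1.12 (0.947 to 1.34) and S100a10 at 1.06 (0.939 to 1.20), so neither was below 1 there. Anxa2 had 1.34 in ILC precursors and 0.844 in basophils, 1.58 times apart. The pairs were picked as the most distant gates of each gene.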

How the results depend on the processing

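No paired analysis was possible because each genotype had 1 library. Of 59 called ratios under 607 alternatives, 581 kept their call, 26 lost it and 0 turned round, and no count of members between gates moved by over 1.5 times. A looser filter for measured genes was among the alternatives and could not lose a call, so its share of the calls kept was fixed in advance. The change of fold was applied to the counts of members and is not among the 607. Of the KO over WT calls, that of S100a4 in T cells alone was kept under all alternatives, at ratios from 0.127 to 0.592. Counts of members lower in KO did move. With at least 500 genes per cell they were 1 in ILC2 and 2 in basophils. With at most 5% mitochondrial UMIs 2 members were higher in KO ILC precursors and 1 was lower in pDC, and with 1 marker more 1 was lower in pDC. With cells thinned to 1500 UMIs 1 was lower in ILC precursors, 1 in ILC2, and 0 in NK or ILC1 cells, basophils and pDC, where fewer UMIs were left to pass the 50 required. A median of ratios scaling left 2 in T cells. A mean of CPM per cell gave 1 in ILC2, 0 in NK or ILC1 and 1 in pDC. Without cells with S100a8 or S100a9 there were 0 in NK or ILC1. Without cycling cells there were 0 in lymphoid progenitors, 1 in ILC precursors, 0 in NK or ILC1, 2 in basophils and 1 in pDC. Without Scrublet doublets (48 KO cells, and the top 274 WT cells by score since it marked 0) 1 was higher in ILC precursors and 0 lower in NK or ILC1. At 2-fold the counts were 0 in lymphoid progenitors, 2 in T cells, 0 in NK or ILC1 and 1 in pDC. With T cells of 3 or more NK markers alone, chosen after seeing the data, 1 was lower in T cells. Beyond what an alternative leaves out by construction, the cause was not tested. Between gates, the calls lost were those of S100a10 in ILC2 over progenitors (1.89 thinned in KO, 1.93 without cycling cells in WT), S100a11 in WT NK or ILC1 (1.95 at 5% mitochondrial) and T cells (1.70 with NK markers alone), Lgals3 in WT T cells, and Anxa2 in WT ILC2 over ILC precursors, the last 2 on fewer UMIs. The median of all genes in ILC2 over progenitors was -0.29 (log2) in KO and -0.26 in WT, and members are lower or higher relative to that shift.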
